A study of Mus musculus with 10 samples.

Results

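The genes described here encode the Polo, Aurora and NEK kinases and related kinases of cell division, with the partner proteins of the Aurora kinases. They were chosen by function, as a list of 37 gene symbols, and each symbol, or a synonym belonging to 1 gene, was looked up in the lists of transcription start sites (TSSs) bound by ARID2. All 37 matched 1 gene each, out of 21774 protein-coding genes in the annotation. Of the 37, 32 belong to kinase families and 5 are partners of Aurora kinases. The study asked where ARID2, the DNA-binding subunit particular to the PBAF form of the SWI/SNF chromatin remodeler, sits on the genome of mouse spermatocytes. It used CUT&RUN, in which a nuclease held at the protein by an antibody releases the DNA fragments beneath it for sequencing. Both ages had 2 ARID2 libraries and 1 control library prepared without primary antibody. The authors clustered TSSs by ARID2 signal over control, and the lists give the ARID2-enriched cluster (cluster-1) at each age.

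Both groups were spermatogenic cells of CD1 mice, and the labels name no engineered allele in either. All mice were gavaged with WIN18,446, which blocks retinoic acid synthesis, at 100 µg per g of body weight from P1 to P10. They then received 10 µl of retinoic acid at 10 µg/µl under the skin at P11, so that the germ cells entered spermatogenesis together. Cells were collected at P28, 17 days after retinoic acid, or at P28.5, 17.5 days after it. Tubules were digested with collagenase and trypsin, and the cells are mixtures enriched in prophase-I and metaphase spermatocytes rather than 1 sorted type. The number of mice behind each library was not given in the sources used here. BRG1 libraries of the same ages were not analysed here.

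Entry into a cell division is driven by CDK1 with its cyclins, and the kinases here act around that switch. AURKA, bound by BORA, activates PLK1, and AURKA bound by TPX2 builds the spindle. AURKB, or AURKC in germ cells, works with INCENP, survivin (Birc5) and borealin (Cdca8) as the chromosomal passenger complex, which corrects attachments of chromosomes to microtubules. NEK kinases act at centrosomes and cilia, Greatwall (Mastl) holds back the phosphatase PP2A, and CHEK1 and CHEK2 delay division when DNA is damaged.

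Of the 37 genes, 11 (29.7%) were listed by name at P28 and 13 (35.1%) at P28.5. Among all protein-coding genes, 16.8% were listed by name at P28 and 11.6% at P28.5. Plk2, Aurka, Bora, Nek1, Nek2, Nek4 and Pbk were listed at both ages. Plk4, Aurkb, Nek7 and Vrk1 were listed at P28 alone, and Plk5, Tpx2, Birc5, Chek2, Tlk2 and Cit at P28.5 alone. These counts of 7, 4 and 6 members stood beside 8.48%, 8.33% and 3.13% of all protein-coding genes. The 7 shared members made up 63.6% of the members listed at P28 and 53.8% of those listed at P28.5, against 50.5% and 73.1% for all protein-coding genes. A list holds a position and a symbol for each TSS, without signal, strand or replicate values. How far a gene lay from the edge of the authors' cluster is not given, and the difference between ages was not tested.

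What could be seen of a gene depended on its strand. Listed positions were compared with plus-strand 5′ ends and with both ends of minus-strand transcripts, and many equalled none of these. Where a listed position did match, it was nearly always the end with the lower coordinate. That end is the 5′ end on the plus strand and the 3′ end on the minus strand, so the 5′ ends of minus-strand genes were seldom listed as such. Some minus-strand names, such as Aurka, nevertheless stood at positions close to their starts. Of the 21 plus-strand members, 9 (42.9%) were listed by name at P28 and 12 (57.1%) at P28.5, beside 26.0% and 20.4% of plus-strand protein-coding genes. Of the 16 minus-strand members, 2 (12.5%) were listed by name at P28 and 1 (6.25%) at P28.5, beside 7.61% and 2.86%. The absence of a minus-strand member from a list thus carries little information about its promoter. A count of listed positions of any name within 2000 bp of an annotated 5′ end reaches such promoters when a neighbour's TSS is listed. By this count, 11 members (29.7%) had a listed position at P28 and 16 (43.2%) at P28.5, beside 17.3% and 14.8% of all protein-coding genes. On the plus strand these were 8 and 12 members, beside 25.0% and 20.9% of genes. On the minus strand they were 3 and 4 members, beside 9.58% and 8.62%. By position, 9 members were reached at both ages, 2 only at P28 and 7 only at P28.5, beside 10.9%, 6.37% and 3.86% of all protein-coding genes.

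**Figure D1:**
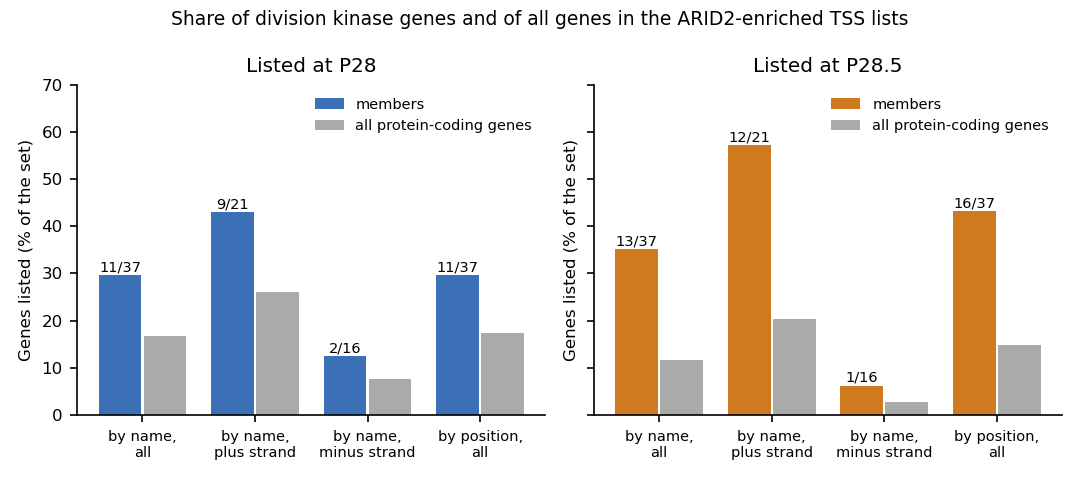
Percent of members (coloured bars, with counts above) and of all protein-coding genes (grey bars) in the ARID2-enriched TSS lists at P28 (left) and P28.5 (right), by name and by a listed position at most 2000 bp from an annotated 5′ end. Plus-strand members reached 57.1% at P28.5, whereas 1 of 16 minus-strand members was listed by name at that age.

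Among the 5 Polo kinases, Plk2 was listed at both ages, Plk4 only at P28 and Plk5 only at P28.5, while neither list named Plk1 or Plk3. These made 2 of 5 (40.0%) at each age, beside 16.8% of all protein-coding genes at P28 and 11.6% at P28.5. Plk2, a kinase linked to centriole duplication and synapses, lies on the plus strand at chr13:110395044-110400844 of mm10. Its single annotated 5′ end was the listed position at both ages. Plk4, the kinase that starts centriole duplication, lies at chr3:40799951-40816883. At P28 it had 4 entries at 2 positions, 40799951, where 3 of its transcripts start, and 40799984, 28 bp before another annotated start. Both positions lay within its first exon. At P28.5 the nearest listed position to Plk4 was 46685 bp away, under the name Gm2011. Plk5, a divergent Polo family member, lies at chr10:80356459-80365489. Its 1 entry at P28.5, 80356802, was 10 bp before its annotated start at 80356812 and 343 bp downstream of its outermost one, within an intron of the longer transcripts. At P28 the nearest listed position to Plk5 was 26314 bp away, under Reep6.

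Plk1, which acts from mitotic entry to cytokinesis, is a plus-strand gene with 1 annotated start at 122159435 on chromosome 7. Absence from a list means only that a TSS was outside cluster-1, not that ARID2 was absent there, and peaks were not used here. At P28 the nearest listed position was 71391 bp from it under Ndufab1, and at P28.5 it was 26394 bp from it under Dctn5. Plk3, a stress-responsive kinase, lies on the minus strand, and its nearest listed position was 21808 bp away under Snord55 at both ages. The promoters of the 3 listed Polo genes are printed with that of Plk1, which was added after the lists had been seen, to set it beside them. The windows of Plk2 and Plk4 hold listed positions, whereas that of Plk5 surrounds its outermost start and ends before its listed position. Each is the RefSeq sequence of GRCm38.p6 from 250 bases before to 50 after a start, on the gene's own strand. Capitals mark matches to the motifs CCAAT (NF-Y), TTTGAA and TTTAAA (cell cycle homology region), TGACGTCA (CRE), GGGCGG (GC box), GCGCATGCG (NRF1), CACGTG (E-box), CCGGAAGT (ETS) and GGCAGTT (MYB), read on both strands. The windows are chr7:122159185-122159484 for Plk1, chr13:110394794-110395093 for Plk2, chr3:40799701-40800000 for Plk4 and chr10:80356209-80356508 for Plk5, all on the plus strand.
Plk1: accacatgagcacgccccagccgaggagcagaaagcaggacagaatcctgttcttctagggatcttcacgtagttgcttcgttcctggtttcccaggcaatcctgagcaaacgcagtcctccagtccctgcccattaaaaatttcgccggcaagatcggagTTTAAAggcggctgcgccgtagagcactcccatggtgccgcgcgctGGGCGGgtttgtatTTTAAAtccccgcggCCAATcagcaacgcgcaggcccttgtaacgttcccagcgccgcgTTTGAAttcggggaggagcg
Plk2: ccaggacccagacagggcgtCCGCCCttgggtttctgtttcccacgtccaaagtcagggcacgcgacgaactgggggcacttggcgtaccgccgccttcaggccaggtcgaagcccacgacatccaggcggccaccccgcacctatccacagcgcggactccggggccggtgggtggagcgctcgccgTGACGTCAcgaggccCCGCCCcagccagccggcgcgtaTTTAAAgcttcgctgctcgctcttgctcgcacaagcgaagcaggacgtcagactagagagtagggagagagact
Plk4: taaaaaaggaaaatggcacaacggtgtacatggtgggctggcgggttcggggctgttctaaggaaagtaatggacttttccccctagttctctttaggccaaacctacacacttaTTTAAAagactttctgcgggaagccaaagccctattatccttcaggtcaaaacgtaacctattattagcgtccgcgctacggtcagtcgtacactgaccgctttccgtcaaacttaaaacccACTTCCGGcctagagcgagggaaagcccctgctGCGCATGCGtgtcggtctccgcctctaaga
Plk5: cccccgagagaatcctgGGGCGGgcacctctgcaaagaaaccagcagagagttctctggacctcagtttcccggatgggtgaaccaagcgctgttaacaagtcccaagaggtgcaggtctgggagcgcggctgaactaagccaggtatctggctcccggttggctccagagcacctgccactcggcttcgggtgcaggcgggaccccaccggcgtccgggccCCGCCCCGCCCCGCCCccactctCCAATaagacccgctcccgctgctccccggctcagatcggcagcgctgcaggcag

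The Plk1 promoter held the fullest set of cell cycle motifs of these 4. Counted to the first base of each match, CCAAT stood 14 bases before its start, TTTAAA 29 and 89 bases before it, and TTTGAA 30 bases after it. Plk2 carried the CRE palindrome 62 bases before its start and TTTAAA 24 bases before it. Plk4 carried the ETS motif, on the other strand, 13 bases before its start and the NRF1 motif 20 bases after it. Plk5 had 4 GC boxes, and CCAAT 5 bases before its outermost start. The CG pair, the target of DNA methylation in mammals, occurred 31 and 18 times in the windows of Plk2 and Plk4, which hold listed positions. It occurred 25 and 21 times in those of Plk1 and Plk5, which hold none. The median over 32851 promoters of 27025 genes was 7, and all 4 windows lay above it.

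Of the 3 Aurora kinases, 2 were listed by name at P28 and 1 at P28.5, beside 16.8% and 11.6% of all protein-coding genes. Aurka was listed at both ages, Aurkb at P28 alone and Aurkc at neither. Aurka, which matures centrosomes and builds the bipolar spindle, is the minus-strand member whose own name was listed near its start. That entry, at 172370686 on chromosome 2, lay between its 2 annotated starts, 116 bp upstream of the inner one. The adjoining plus-strand gene Cstf1, a subunit of the cleavage stimulation factor, starts 75 bp from an Aurka start and had its own entry 117 bp upstream of the outer Aurka start. Aurkb, the passenger kinase of mitosis, had 2 entries at P28, 1 at an annotated start, 69045637 on chromosome 11, and 1 at 69045625, 1 bp from its other start. At P28.5 the nearest listed position to Aurkb was 14138 bp away, under Borcs6. Aurkc, the germ cell paralog, had no listed position nearer than 372970 bp at P28, under Vmn2r30, and 632039 bp at P28.5, under Zfp78. As with Plk1, this places the Aurkc starts outside cluster-1 and does not show that ARID2 was absent from them.

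The promoters of Aurka and Aurkc show how unlike these paralogs are at their starts, and Aurkc was again added after the lists had been seen. They are RefSeq sequences of GRCm38.p6, from chr2:172370521-172370820 on the minus strand for Aurka and chr7:6995135-6995434 on the plus strand for Aurkc. Capitals mark the same motifs.
Aurka: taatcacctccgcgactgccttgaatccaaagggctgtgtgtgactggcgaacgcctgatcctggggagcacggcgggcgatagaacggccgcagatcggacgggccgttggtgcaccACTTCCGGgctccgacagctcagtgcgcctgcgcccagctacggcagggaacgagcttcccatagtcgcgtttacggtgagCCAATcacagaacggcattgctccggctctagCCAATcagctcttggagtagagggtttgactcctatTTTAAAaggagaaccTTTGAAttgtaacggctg
Aurkc: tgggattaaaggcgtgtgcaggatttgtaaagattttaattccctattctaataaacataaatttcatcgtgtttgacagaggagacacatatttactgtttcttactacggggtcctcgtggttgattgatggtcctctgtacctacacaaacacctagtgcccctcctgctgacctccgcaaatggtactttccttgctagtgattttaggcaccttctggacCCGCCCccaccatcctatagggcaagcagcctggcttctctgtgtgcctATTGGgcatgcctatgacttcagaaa

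Aurka held CCAAT 19 and 51 bases before this start, TTTAAA 17 bases after it and TTTGAA 32 bases after it, with an ETS motif on the other strand 132 bases before it. Aurkc held CCAAT on the other strand 24 bases after its start and 1 GC box. The Aurka window had 24 CG pairs and the Aurkc window 6. In the 1001 bp centred on the outermost start, the observed over expected CpG ratio was 0.872 for Aurka and 0.370 for Aurkc. The median of all protein-coding genes was 0.516.

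Of the 5 Aurora partners, 1 was listed by name at P28 and 3 at P28.5, beside the 16.8% and 11.6% of all protein-coding genes, and the difference between ages was not tested. Bora, the PLK1-activating cofactor of AURKA, was listed at both ages at 99046377 on chromosome 14, the start of 2 of its 3 transcripts. A position named Mzt1, for a small protein of the gamma-tubulin complex, stood 130 bp upstream of it at both ages, and the annotated starts of these opposed genes are 76 bp apart. Tpx2, the spindle activator of AURKA, was listed at P28.5 alone, with 8 entries at both of its annotated starts, 152847964 and 152847979 on chromosome 2. All 8 of its annotated transcripts began there. Birc5, which encodes survivin, was likewise listed at P28.5 alone, at the single start of its 2 transcripts, 117849237 on chromosome 11. At P28 the nearest listed position was 93016 bp from Tpx2 and 32131 bp from Birc5.

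Cdca8 and Incenp, the other passenger subunits, are minus-strand genes that were not listed by name. Cdca8, for borealin, nevertheless had listed positions upstream of its single start under the name of the opposed gene 9930104L06Rik. There were 4 at P28, from 70 to 131 bp away, and 1 at P28.5, at 70 bp. Incenp, the scaffold of the complex, had none near it, and the nearest was 304713 bp from its starts at both ages, under Tmem258. Thus 4 of the 5 partners had a listed position of some name within 2000 bp at P28.5, and 2 of 5 at P28, beside 14.8% and 17.3% of all protein-coding genes.

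**Figure D2:**
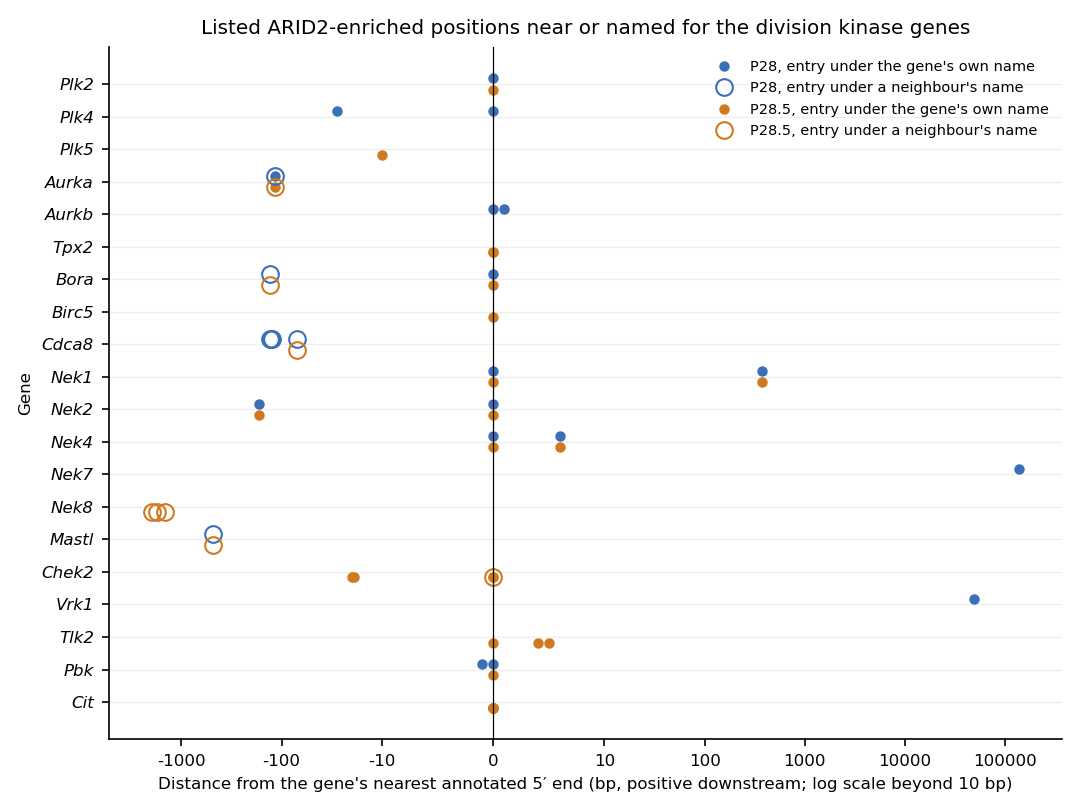
Distance in bp, on an axis that is logarithmic beyond 10 bp, from each listed position to the nearest annotated 5′ end of the gene, for the 20 genes that were listed by name or had a listed position within 2000 bp. Filled points are entries under the gene's own name and open circles entries under a neighbour's name, in blue for P28 and orange for P28.5. Most filled points lie at or near 0, whereas those of Nek7 and Vrk1 lie 135920 and 48763 bp downstream.

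Of the 11 NEK kinases, 4 (36.4%) were listed by name at P28 and 3 (27.3%) at P28.5, beside 16.8% and 11.6% of all protein-coding genes. Nek1, Nek2 and Nek4 were listed at both ages, each at the same positions at both. Both lists draw on annotated TSSs, so the same positions tend to recur for a gene listed at both. Nek2, which separates centrosomes before division, had 1 entry at an annotated start, 191821473 on chromosome 1, and 1 entry 168 bp upstream of its outermost start. Nek1, a kinase of cilia and the DNA damage response, had 4 entries at 60993193 on chromosome 8, where 4 of its 8 transcripts start. Another entry lay 372 bp downstream of that start, within the 5′ untranslated region. Nek4 had 2 entries at its outermost start, 30951377 on chromosome 14, and 1 entry 6 bp after it. Its innermost annotated start, 1029 bp from the nearest entry, was not listed.

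Nek7, which acts with NEK6 and NEK9 in spindle assembly, was listed by name at P28, but away from its promoter. Its 2 entries stood at 138483837 on chromosome 1, the 3′ end of this minus-strand gene and 135920 bp from its start. By position Nek7 therefore had no listed start at P28. Nek8, a ciliary kinase on the minus strand, had 3 positions named Tlcd1 at P28.5, the nearest 1454 bp upstream of its start, and none within 2000 bp at P28. The remaining 7 genes, Nek3, Nek5, Nek6, Nek7, Nek9, Nek10 and Nek11, had no listed position within 2000 bp at either age. Of these, Nek6 and Nek10 are plus-strand genes, with the nearest listed position 493553 and 100555 bp away at both ages. At their outermost starts the CpG ratio was 0.106 for Nek6 and 0.098 for Nek10. Inner starts of Nek6 were CpG-rich, with ratios up to 0.968, and its 2 RefSeq promoter windows held 36 and 56 CG pairs.

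Of the 3 Greatwall and checkpoint kinases, only Chek2 was listed by name, at P28.5 alone, beside 11.6% of all protein-coding genes at that age. Chek2, the effector kinase of ATM, had 7 entries at 4 positions on chromosome 5, from 110839943 to 110840017. A further entry, under the name of the opposed gene Hscb, for an iron-sulfur cluster cochaperone, stood at 110839800, which is itself an annotated Chek2 start. Annotated starts of Hscb and Chek2 are 7 bp apart. At P28 the nearest listed position was 68912 bp away. The RefSeq promoter of Chek2 in GRCm38.p6, chr5:110839733-110840032 on the plus strand, holds all 5 positions and is printed for that reason, chosen after the lists had been seen. Here capitals mark the base at each listed position.
Chek2: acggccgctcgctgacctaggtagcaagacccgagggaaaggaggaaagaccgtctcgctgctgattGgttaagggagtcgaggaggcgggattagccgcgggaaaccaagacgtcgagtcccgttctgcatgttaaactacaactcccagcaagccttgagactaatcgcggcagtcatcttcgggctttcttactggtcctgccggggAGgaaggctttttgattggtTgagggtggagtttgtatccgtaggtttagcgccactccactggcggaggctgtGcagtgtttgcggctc

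This window had 21 CG pairs and spans 8 annotated Chek2 starts, of which 2 were listed under the gene's own name. Mastl, the Greatwall kinase, lies on the minus strand and was not listed by name. It had 1 position named Yme1l1, for a mitochondrial protease, 481 bp upstream of its outermost start at both ages. Chek1, the effector kinase of ATR and also a minus-strand gene, had its nearest listed position 40999 bp away at both ages.

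Of the other 10 kinases, 2 (20.0%) were listed by name at P28 and 3 (30.0%) at P28.5. Beside these stood 16.8% and 11.6% of all protein-coding genes, so the share at P28 was near the background. The 1 gene listed at both ages was Pbk, beside 8.48% of all protein-coding genes. Pbk, a mitotic kinase also called TOPK, had entries at 65805911 and 65806232 on chromosome 14 at P28 and at the first of these at P28.5. The former is an annotated start and the latter lies 1 bp before another. Cit, for the citron kinase of the midbody, had the most entries of any member, 18 at 6 positions, all at P28.5. It also had the most annotated transcripts, 34, and a position could be entered more than once where several start. The number of entries is therefore not a measure of ARID2 signal. All 6 were annotated starts within 115845224 to 115845287 on chromosome 5. The 4 starts farther into Cit were not listed, the nearest of them 369 bp and the farthest 100017 bp from an entry. At P28 the nearest listed position to Cit was 285757 bp away.

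Tlk2, a tousled-like kinase that phosphorylates the histone chaperone ASF1, was listed at P28.5 alone and at 1 of its starts. Its 7 entries covered 105181527, 105181531 and 105181532 on chromosome 11, and 5 of its 20 transcripts start at the first of these. The outermost start, used by 6 transcripts, lies 13632 bp upstream and was not listed. The CpG ratio in the same 1001 bp was 0.208 at the outermost start and 0.849 at the listed one. RefSeq promoters of GRCm38.p6 were at hand for the listed start, chr11:105181277-105181576, and for an unlisted start upstream of it, chr11:105178557-105178856, both on the plus strand. They are shown because they place 2 starts of 1 gene side by side, a choice made after the lists had been seen. Capitals mark CG pairs.
Tlk2 listed start: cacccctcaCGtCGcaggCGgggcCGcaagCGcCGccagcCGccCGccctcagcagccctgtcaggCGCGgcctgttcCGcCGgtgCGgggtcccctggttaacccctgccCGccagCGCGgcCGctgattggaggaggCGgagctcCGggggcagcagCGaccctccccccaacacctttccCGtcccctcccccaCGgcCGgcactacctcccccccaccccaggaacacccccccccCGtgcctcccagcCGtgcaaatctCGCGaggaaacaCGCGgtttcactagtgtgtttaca
Tlk2 unlisted start: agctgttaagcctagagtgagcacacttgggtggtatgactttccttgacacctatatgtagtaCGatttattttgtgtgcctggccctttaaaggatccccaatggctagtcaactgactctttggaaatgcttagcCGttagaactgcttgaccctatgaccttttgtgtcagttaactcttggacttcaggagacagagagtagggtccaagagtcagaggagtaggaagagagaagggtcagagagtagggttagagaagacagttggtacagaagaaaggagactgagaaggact

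The listed window had 29 CG pairs and the unlisted one 2, with 72.3% and 45.7% G and C. Vrk1, a kinase that releases BANF1 from chromatin, was listed by name at P28, at 106085303 on chromosome 12. This position lies past the 3′ end of the gene at 106078318 and 48763 bp from its nearest start, so Vrk1 had no listed start. In GENCODE vM21 it falls inside the lincRNA gene Gm46378, 933 bp from that gene's start, so the entry cannot be assigned to the Vrk1 promoter. Vrk2, Tlk1, Melk, Lats1, Lats2 and Mos had no entry and no listed position within 2000 bp at either age. Melk and Lats1, the latter a kinase of the Hippo pathway, are plus-strand genes, while Mos, a kinase known from meiotic oocytes, lies on the minus strand. Lats1 was 44791 bp from a listed position at P28 and 17829 bp from one at P28.5.

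**Figure D3:**
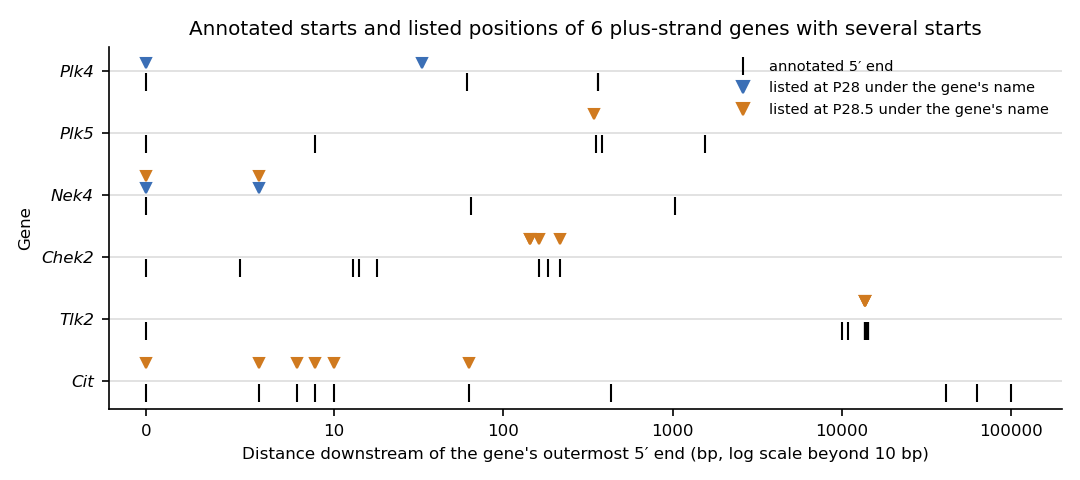
Annotated 5′ ends (black bars) and positions listed under the gene's own name (triangles, blue for P28 and orange for P28.5) of 6 plus-strand members with several starts, as distance in bp downstream of the outermost 5′ end, logarithmic beyond 10 bp. Tlk2 was listed 13632 bp from its outermost start and Cit at its outermost group of starts.

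Of 11553 entries at P28, 24 carried a member's name, and of 8514 at P28.5, 57 did, 18 of them for Cit. A position could be entered more than once where several transcripts start, so these totals are not a measure of signal. The members' entries covered 17 positions at the earlier age and 27 at the later one, and 10 positions were common to both. Of the 34 distinct positions, 20 equalled an annotated 5′ end of the named member, 12 lay 1 to 500 bp from one, and the 2 others were those of Nek7 and Vrk1. All 7 members named at both ages shared a position between ages, and 6 of them had identical positions, Pbk being the exception. Both lists draw on annotated RefSeq TSSs, so shared positions and matches to annotated 5′ ends were largely set by the annotation. Of the 37 members, 18 had a listed position of any name within 2000 bp at either age, beside 21.1% of all protein-coding genes, and 19 had none.

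**Figure D4:**
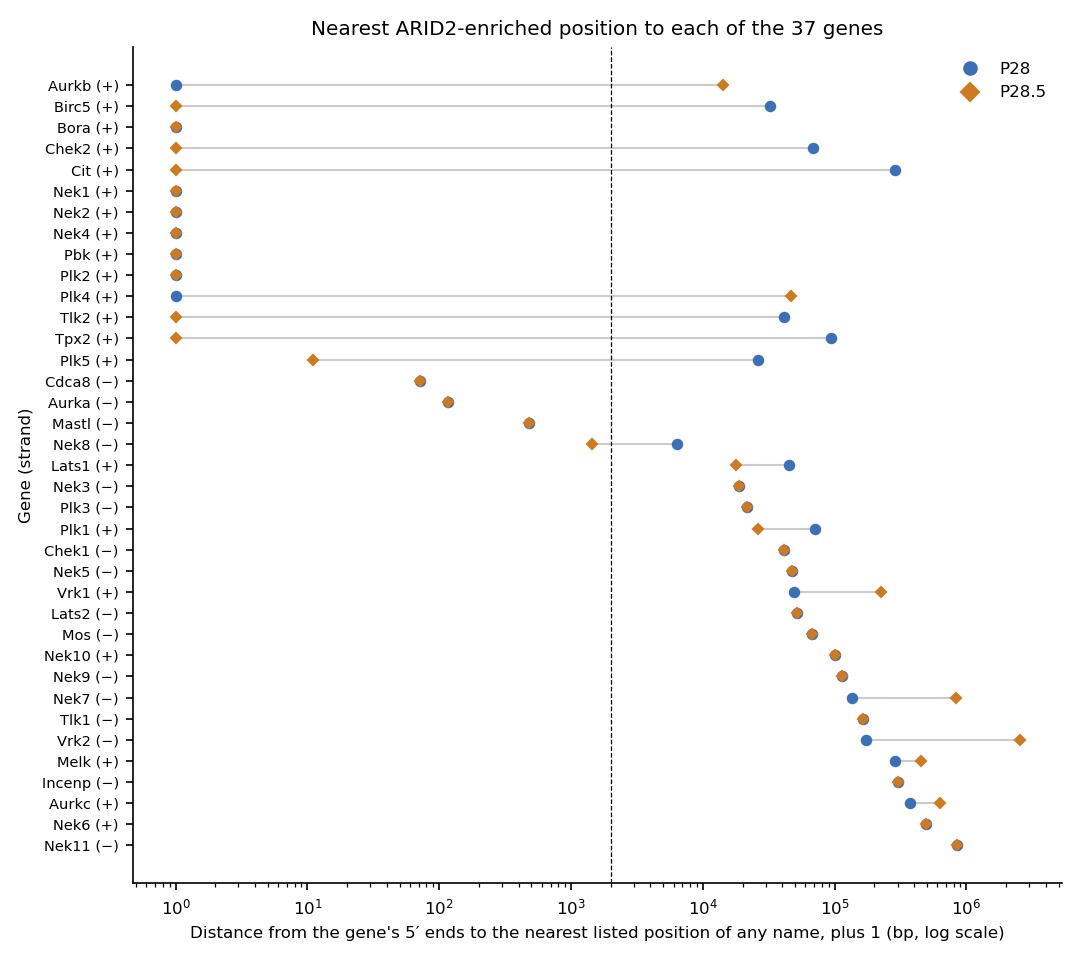
Distance in bp from each of the 37 genes' 5′ ends to the nearest listed position of any name, plus 1, on a log axis, at P28 (circles) and P28.5 (diamonds). The dashed line marks 2000 bp, left of which 11 genes lie at P28 and 16 at P28.5, and no gene lies between 2000 and 5000 bp at either age.

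Most members had CpG-rich promoters. Their median CpG ratio was 0.771, against 0.516 for all protein-coding genes, and 28 of 37 lay above that value. Among the 18 with a listed position within 2000 bp at either age, the median was 0.773, with a range from 0.208 for Tlk2 to 0.975 for Bora. Among the 7 plus-strand members without one, it was 0.634, from 0.098 for Nek10 to 0.911 for Lats1. The 12 minus-strand members without one had a median of 0.809, from 0.235 for Nek3 to 1.106 for Tlk1, and their starts could scarcely be listed. The ranges of the 3 groups overlapped. Over all protein-coding genes, the median was 0.730 for the 4342 listed by name at either age and 0.353 for the 7438 plus-strand genes listed at neither. These ratios describe outermost starts, and Tlk2, Nek6, Nek3 and Vrk2, which lay below 0.516 there, each had another annotated start above it. The part of CpG content in the listing of members was not tested.

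**Figure D5:**
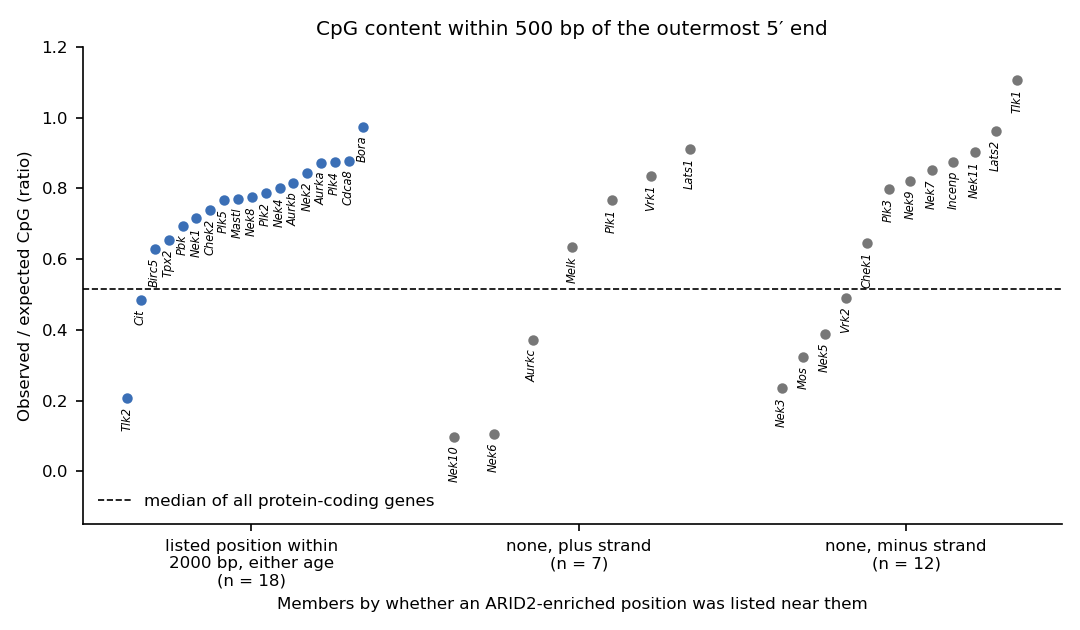
Observed over expected CpG (a ratio) in the 1001 bp centred on the outermost 5′ end, 1 point per member, for members with a listed position within 2000 bp at either age, plus-strand members without one and minus-strand members without one. The dashed line is the median of all protein-coding genes, 0.516, above which lay 16 of 18, 4 of 7 and 8 of 12 members.

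Opposed neighbours were common around the members. Another gene's 5′ end on the other strand lay within 1000 bp of a start in 12 of 37 members (32.4%), against 21.7% of all protein-coding genes. They were Aurka, Bora, Incenp, Cdca8, Nek4, Nek8, Nek11, Mastl, Chek2, Tlk2, Cit and Lats1. Of these 12, 5 (41.7%) had a listed position within 2000 bp at P28 and 9 (75.0%) at P28.5. Of all 4735 protein-coding genes with such a neighbour, 39.9% and 38.3% had one, so the members' share at P28 was near the background. Entries under a neighbour's name stood near 6 of them, Aurka, Bora, Cdca8, Nek8, Mastl and Chek2. At such shared promoters the signal of 1 gene and that of its neighbour cannot be told apart. Pcmt1, a protein repair enzyme, starts 33 bp from Lats1, and Aste1 7 bp from Nek11, yet no position was listed near either pair.

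RefSeq promoters were matched for 30 of the 37 members, as 37 windows, since some members had several. Entries for Aurkb, Tpx2, Bora, Incenp, Nek1, Pbk and Mos were missing. The median number of CG pairs was 22 in the member windows against 7 in all windows. CCAAT occurred in 37.8% of member windows and 37.4% of all windows, so this motif was no more frequent in the members. TTTGAA occurred in 32.4% against 17.9%, TTTAAA in 24.3% against 13.2%, and the GC box in 51.4% against 35.7%. The ETS motif occurred in the windows of Plk4 and Aurka, or 5.41% against 3.89%. The CRE occurred in Plk2 alone among the members (2.70% against 1.79%), the NRF1 motif in Plk4 alone (2.70% against 1.75%) and the E-box in Lats2 alone (2.70% against 7.15%). GGCAGTT occurred in none of the member windows and in 4.12% of all windows. No match of 1 motif overlapped a match of another in the printed windows. A match is a run of letters and does not show that a factor was bound.

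Around the members, 73 genes of the same pathways were looked up, of which 20 (27.4%) were listed by name at P28, 21 (28.8%) at P28.5 and 15 at both, beside the 16.8% and 11.6% of all protein-coding genes. By strand, 18 and 19 of their 36 plus-strand genes were listed at the 2 ages, beside 26.0% and 20.4% of all plus-strand genes. On the minus strand the counts were 2 and 2 of 37, beside 7.61% and 2.86% of all minus-strand genes. Among 15 genes of the CDK1 switch, Cdc25a, Wee1, Cks1b and Cks2 were listed at both ages, and Cdk2 and Pkmyt1 at P28 alone. The Pkmyt1 entry lay 20033 bp from its nearest start. Cdk1 and the cyclin genes Ccna1, Ccna2, Ccnb1, Ccnb2 and Ccnb3 all lie on the minus strand and were not listed. Among 11 Polo partners, Cep192, Stil, Kif20a and Prc1 were listed at both ages, and Cenpu, which docks PLK1 at kinetochores, at P28.5 alone. Stil, the partner of PLK4 in centriole assembly, had 7 entries at each age, while Plk4 itself was listed at P28 alone.

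Of 11 Aurora partners outside the members, Tacc3 and Ckap5, which act with AURKA at spindle microtubules, were listed at both ages and Sgo1 at P28.5 alone. Of 6 genes of the Greatwall pathway, Ensa, whose product MASTL phosphorylates, and Ppp2r1a were listed at both ages. Arpp19, for the related MASTL substrate, was listed only at P28, and Ppp2ca only at P28.5. Of 12 checkpoint partners, Rad1, Mdc1 and Cdc25a were listed at both ages and Clspn, the adaptor through which ATR activates CHEK1, at P28.5 alone. Mob1b was the only 1 of 8 Hippo genes listed, at P28.5. Of the 11 Aurora partners 8 lie on the minus strand, as do 5 of the 8 Hippo genes, and their absence carries little information. In the Mos pathway, Rps6ka2 was listed only at P28 and Map2k2 only at P28.5. Asf1b, a substrate of the TLK kinases, was the 1 gene of 3 TLK and VRK substrates to be listed, and it was listed at both ages. Beside all these counts, 16.8% of all protein-coding genes were listed by name at P28, 11.6% at P28.5 and 8.48% at both. With lists this small, differences from those shares were not tested.

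The labelled cells could not be checked by expression, since the lists hold binding positions. Among 8 spermatocyte genes, Sycp2 and Sycp3 were listed by name at P28, and Sycp3, Hormad1 and Spo11 at P28.5. The Sycp2 entries lay 49832 bp from its nearest start. Of 5 round spermatid genes, Tnp1 was listed at P28, with its entry 825 bp from its nearest start, and none at P28.5. These counts stood beside 16.8% and 11.6% of all protein-coding genes. None of 4 Sertoli genes and none of 3 Leydig genes was listed at either age. Several genes of the spermatocyte, round spermatid and Leydig lists lie on the minus strand, where absence carries little information. A listed promoter does not identify the cell type it came from, and the part of the cell mixture in the differences between ages was not tested.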

How the data were processed

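ARID2 was mapped by CUT&RUN in spermatogenic cells from synchronized CD1 testes of both ages, each with 2 ARID2 libraries and 1 library that lacked primary antibody. The authors aligned reads to mm10 with Bowtie2, handled alignments with SAMtools and made tracks with deepTools, tools that the submitters' processing notes name. The log2 ratio to control was averaged over replicates, and RefSeq TSSs were clustered by k-means on it. The deposited lists hold positions and symbols of cluster-1, 11553 entries at P28 and 8514 at P28.5, with no depth or signal. BRG1 libraries, tracks and peaks were not used here.

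A symbol was matched directly or by a synonym of 1 gene. Positions were compared, as deposited, with RefSeq 5′ ends on GRCm38.p6, which shares its coordinates with mm10. At P28, 4893 entries equalled a plus-strand 5′ end, 1482 a minus-strand 3′ end and 9 a minus-strand 5′ end, and at P28.5 these were 4361, 122 and 8. The remaining entries equalled none of these ends, and plus-strand 3′ ends were not compared. Matching was tested on simulated data. Scripts ran under Python 3.11.15 with numpy 2.4.6 and scipy 1.17.1, and plots were drawn with matplotlib 3.10.9.

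The members and the pathway, motif and marker lists were chosen with earlier results of these data known, so no test was made over them. The genes named are the members, listed genes of the pathway and marker lists, genes whose names stand within 2000 bp of a member's 5′ end, and the genes nearest to unlisted Polo and Aurora members. Of the pathway lists, 1 gene is not reported here. Others named were chosen after their values were seen.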

Additional observations from a re-analysis of the deposited data

How the results depend on the processing

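The counts of members at each age and at both ages moved by no more than 1.5 times under the 25 alternatives that were run. Some of these counted fewer members or used another measure, so a count called the same need not be the same share. Some smaller counts moved further when a position of any name within 2000 bp replaced the name. Minus-strand members at P28.5 went from 1 to 4, Aurora partners at P28 from 1 to 2, and members at P28 alone from 4 to 2. Beside the count by name, 4 alternatives stayed between 9 and 11 members at P28 and between 12 and 16 at P28.5. They left out synonyms, or took only entries within 2000 bp of a member's own 5′ ends. The others took a position of any name within 2000 bp, which gave the 16, or plus-strand members alone. Plus-strand members are counted out of 21 rather than 37. Their share was 42.9% at P28 and 57.1% at P28.5, against 29.7% and 35.1% of all members. The lower count of 9 at P28 left out Nek7 and Vrk1, whose entries lie far from their starts, or the minus-strand members Aurka and Nek7. Members with a listed position near a 5′ end stayed between 8 and 12 at P28 and between 12 and 16 at P28.5, over distances of 500 to 5000 bp, curated transcripts, outermost 5′ ends, plus-strand members and GENCODE vM21 5′ ends. The GENCODE ends, added after seeing the data, brought in Nek8 at P28 through an entry named Traf4, 603 bp from a Nek8 start. Members at both ages stayed between 7 and 9, also with entries near a member's own 5′ ends alone, another alternative added after seeing the data. Of 6 alternatives for the background shares, 5 moved them beyond their 95% Wilson interval, the furthest being all annotated genes in place of protein-coding ones, with 8.23% at P28 and 5.45% at P28.5.

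Each list was made from averaged replicates, so no replicate was left out in turn, and the counts have no error. Signal of single libraries was not analysed here. No paired analysis was possible because no result came from a test and the lists carry no replicate values. The lists give no signal, so a gene just inside the cluster and one just outside it look as different as any other pair, and minus-strand starts were seldom listed.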
